A study of Homo sapiens with 6 samples.

Results

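HOX genes encode homeodomain transcription factors that stand in 4 chromosomal clusters and give cells of the embryo their position along the body axis. The genes of a cluster lie in an order that matches where along the axis they act, with anterior paralogs at one end and posterior paralogs at the other. Where a HOX gene is silent, its CpG-rich promoter is classically held by Polycomb group complexes, and where it is active it is kept so by Trithorax-side proteins that include KMT2A. In the mammary epithelium and in breast cancer cells, a subset of HOX genes is known to be expressed, and the noncoding RNAs HOTAIR and HOTTIP are made from inside the HOXC and HOXA clusters. The genes described here are 38 of the 20162 protein-coding genes of the annotation, and they were chosen by name: 10 in the HOXA cluster, 10 in HOXB, 9 in HOXC and 9 in HOXD.

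Chromatin accessibility was measured by ATAC-seq, which maps open DNA by where a transposase can enter it. MDA-MB-231, an established line of triple-negative breast cancer, was grown in the same serum-containing medium in both groups. There were 3 libraries labelled parental and 3 labelled SAP30-KO1, whose genotype label is SAP30 knockout. SAP30 is a subunit of the SIN3 complex, the knockout was made with CRISPR/Cas9, and the study describes such lines as mixtures of selected knockout cells, so that SAP30-KO1 stands for 1 line. A further SAP30 knockout line was not analysed here.

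Each library came as its own list of peak summits, the single base of strongest signal in each peak, with a score equal to −log10 of the q value. Lists held 29762 to 40650 summits. Peaks were taken to be called library by library, so scores were not taken as comparable between lists as they stand. Each summit was given its percentile rank within its own list, from 0 to 100, and a library with no summit at a place was given a rank of 0. A gene had a promoter summit when a summit lay within 1 kb of any of its annotated start sites. The lists hold no read counts, so depth is unknown and a missing summit means only that none was called at this depth. The SAP30 promoter itself had a summit in every library, at ranks of 84.7, 64.8 and 81.3 in parental cells against 71.8, 49.5 and 89.5 in SAP30-KO1 cells, which does not test the knockout. Of 5 genes expected to be open in this cell line, VIM, CD44 and EGFR had a promoter summit in all 6 libraries and ZEB1 and AXL in 3 each. Among 6 luminal or epithelial genes none did so in all 6. CDH1, which encodes E-cadherin, had none in any library, whereas GATA3 and EPCAM each had one in 5.

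Open chromatin at HOX promoters was rare in both groups. The number of HOX genes with a promoter summit was 4, 1 and 6 of 38 in parental replicates 1 to 3, against 4, 4 and 2 in SAP30-KO1 replicates 1 to 3. This came to 3.67 ± 2.52 genes for parental and 3.33 ± 1.15 for SAP30-KO1 (SD, n = 3 each). The groups overlapped, and the difference of -0.333 genes (SAP30-KO1 minus parental, as for all differences here) was smaller than the spread between libraries. Over all protein-coding genes, 46.1% to 54.0% had a promoter summit in a library, against 2.63% to 15.8% of the HOX genes. In any library at all, 6 HOX genes had a promoter summit (15.8%, against 62.3% of all genes), and HOXD1 alone had one in all 6 (2.63%, against 34.6%). The other 32 HOX genes had none in any library. With a rank of 0 for every gene without a summit, the mean promoter rank of the 38 genes was 4.71, 1.71 and 6.51 in parental cells against 3.83, 4.97 and 1.55 in SAP30-KO1 cells. The mean over all genes was 28.8 ± 2.36 and 29.5 ± 3.47 (SD, n = 3).

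**Figure D1:**
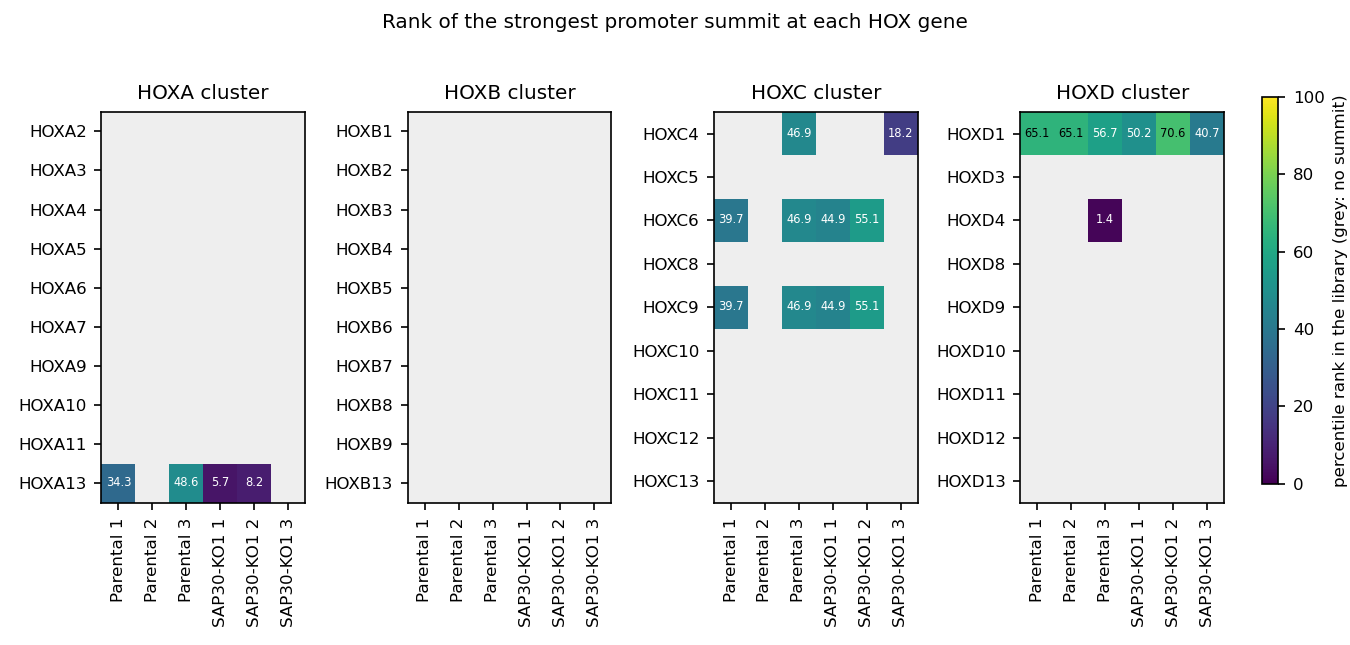
Percentile rank of the strongest promoter summit at each of the 38 HOX genes (rows, by cluster) in each of the 6 libraries (columns), with grey where no summit was called. HOXD1 is coloured in all 6 columns, HOXA13, HOXC6 and HOXC9 in 4 each, HOXC4 in 2 and HOXD4 in 1, and the HOXB panel is empty.

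The sites at which the clusters were open are shown by their sequence before their values. The 6 stretches below are reference sequence of GRCh37 (hg19), plus strand, 5′ to 3′, around the middle summit of each HOXA, HOXC and HOXD site that recurred in 3 or more libraries. Capitals mark a CTCF core motif or an AP-1 motif (TGANTCA) where the printed stretch holds one, and stretches without capitals hold neither.
HOXD13 to HOXD12 intergenic, chr2:176962219-176962518: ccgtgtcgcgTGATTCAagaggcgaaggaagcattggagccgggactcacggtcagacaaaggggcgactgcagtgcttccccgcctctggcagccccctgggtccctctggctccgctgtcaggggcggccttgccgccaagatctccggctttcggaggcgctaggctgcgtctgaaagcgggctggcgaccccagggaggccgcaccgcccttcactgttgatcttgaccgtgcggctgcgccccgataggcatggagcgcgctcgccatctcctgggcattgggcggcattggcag
HOXD1 promoter, chr2:177053129-177053279: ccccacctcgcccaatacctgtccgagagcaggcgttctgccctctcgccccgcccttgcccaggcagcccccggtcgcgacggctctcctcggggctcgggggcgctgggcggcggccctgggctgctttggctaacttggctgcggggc
HOXD3 intron, chr2:177005397-177005547: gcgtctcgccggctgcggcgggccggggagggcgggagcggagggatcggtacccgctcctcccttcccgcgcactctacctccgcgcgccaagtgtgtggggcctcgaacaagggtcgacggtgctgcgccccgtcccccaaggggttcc
HOXA7 to HOXA9 intergenic, chr7:27200513-27200778: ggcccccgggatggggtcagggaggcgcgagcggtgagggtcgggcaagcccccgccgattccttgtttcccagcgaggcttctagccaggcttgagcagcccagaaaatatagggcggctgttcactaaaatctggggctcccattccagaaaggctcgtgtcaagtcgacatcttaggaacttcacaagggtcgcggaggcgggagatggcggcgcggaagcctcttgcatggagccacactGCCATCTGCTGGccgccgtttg
HOXA13 promoter, chr7:27239768-27239918: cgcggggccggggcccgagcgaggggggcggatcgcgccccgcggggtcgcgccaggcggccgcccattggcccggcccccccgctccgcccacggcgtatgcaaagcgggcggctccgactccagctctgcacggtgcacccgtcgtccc
HOXC9 promoter, chr12:54389190-54389292: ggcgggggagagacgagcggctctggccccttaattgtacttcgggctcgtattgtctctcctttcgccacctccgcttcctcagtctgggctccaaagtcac
GC content ran from 60.2% at HOXC9 to 81.5% at HOXA13. The intergenic HOXD stretch of 300 bases held 27 CpG dinucleotides, and the HOXC9 stretch of 103 bases held 7.

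HOXD1, the anterior gene at the end of the HOXD cluster, was the HOX gene with the most regular promoter summit. It lies at chr2:177053396-177055635 on the plus strand, and its summits stood from 257 bp before to 154 bp after its start site. Ranks were 65.1, 65.1 and 56.7 in parental cells against 50.2, 70.6 and 40.7 in SAP30-KO1 cells. The highest and the lowest of the 6 values were both SAP30-KO1 libraries, so the ranges overlapped. Means were 62.3 ± 4.84 and 53.8 ± 15.3 (SD, n = 3), which differ by -8.48, less than the larger of the 2 SDs (exact permutation test, two-sided, p = 0.4). In limma fitted over the 6966 genes with a promoter summit in all 6 libraries, its standard error was 13.6 and its adjusted p was 0.921. The same summits serve the start site of HAGLR, a long noncoding RNA on the opposite strand, and the middle summit was 3 bp from that start site and inside an exon of HAGLR, so the promoters of the pair cannot be told apart.

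HOXA13, the posterior end gene of the HOXA cluster, had a promoter summit in 4 libraries. It lies at chr7:27233122-27239710 on the minus strand, with summits 77 to 413 bp before its start. The middle summit lay in an intron of the noncoding RNA HOTTIP, on the opposite strand. Ranks were 34.3, 0 and 48.6 in parental cells against 5.69, 8.19 and 0 in SAP30-KO1 cells. A library of each group lacked the summit, and where it was called, both parental ranks lay above both SAP30-KO1 ranks. The means of 27.6 ± 25.0 and 4.63 ± 4.20 (SD, n = 3) differed by -23.0, the largest difference of any HOX promoter here, with overlapping ranges (exact permutation test, two-sided, p = 0.4). Without parental replicate 2, the parental library lacking the summit, the ranges no longer overlapped. The same omission separated 19.5% of all genes with a promoter summit. Loci of chromosome arm 7p that were open in all 6 libraries, 432 in number, had a median difference of 3.42 rank points. The part of that shift in the HOXA13 difference was not tested.

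In the HOXC cluster, HOXC9 and HOXC6 were served by the same summits, as both have an annotated start site within 1 kb of them. HOXC9 lies at chr12:54388679-54397121 and HOXC6 at chr12:54384408-54424607, both on the plus strand. The shared summits ran from 78 bp before to 200 bp after the nearest HOXC9 start and lay inside HOXC6, with the middle one in an exon of the antisense RNA HOXC-AS2. Ranks were 39.7, 0 and 46.9 in parental cells against 44.9, 55.1 and 0 in SAP30-KO1 cells. In each group 1 library lacked the summit, and the others stood close together. The means were 28.9 ± 25.3 and 33.3 ± 29.3 (SD, n = 3), a difference of 4.45 (exact permutation test, two-sided, p = 0.8).

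The last pair of genes rested on summits seen once. HOXC4 had a summit 920 bp after a start site in parental replicate 3 (rank 46.9) and a different one 956 bp before another start site in SAP30-KO1 replicate 3 (rank 18.2), which gave a mean difference of -9.55. HOXD4 had one of rank 1.40, 424 bp after its start, in parental replicate 3. Both HOXC4 summits were near the 1 kb limit. Just outside it, a summit of parental replicate 1 lay 1576 bp from a HOXA3 start, and the site between HOXD13 and HOXD12 lay 2055 bp from the HOXD12 start. A limit of 2.5 kb added those genes and gave 8 genes (21.1%) with a summit in any library, when 66.1% of all genes had one. A limit of 500 bp gave 5 genes. With canonical start sites alone there were 3 genes (7.89%, against 56.6% of all genes), HOXD1, HOXA13 and HOXD4, as the summits of HOXC9, HOXC6 and HOXC4 all lie at other annotated starts.

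None of the 6 HOX genes with a promoter summit had group ranges that did not overlap. A gene with a rank of 0 in a library of each group cannot separate, so HOXD1 was the only one of them that could. Over all genes with a promoter summit in any library, 10.6% did (1330 of 12564), with 755 higher and 575 lower in SAP30-KO1 cells. With 3 libraries against 3, the exact permutation test cannot give a p below 0.1. Leaving out 1 library moved the HOX count to 1 when parental replicate 2 (HOXA13 lower) or SAP30-KO1 replicate 2 (HOXD1 lower) was left out, while the share over all genes rose to 19.5% and 19.4%. In the limma fit, 0 of 6966 genes (0%) passed an adjusted p of 0.05, 461 had an unadjusted p under 0.05, and the lowest adjusted p was 0.541. HOXD1 was the one HOX gene tested there, and it was not among the 461.

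Most HOX promoters have CpG-rich sequence, the kind most often open in these libraries. Of the 38 promoters, 31 (81.6%) were CpG-rich, meaning a GC content of at least 50% and an observed to expected CpG ratio of at least 0.6 within 500 bp of the canonical start site. The median HOX promoter had a GC content of 59.7% and a ratio of 0.789, beside 61.3% and 0.725 over all genes. Within 1 kb of that canonical start site, 3 of the 31 CpG-rich HOX promoters (9.68%), those of HOXA13, HOXD1 and HOXD4, had a summit in any library and 1 (3.23%) in all 6. Of the 12922 CpG-rich promoters of all genes, 77.5% had a summit there in any library and 43.0% in all 6.

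Other developmental gene families stood between HOX genes and the whole genome. Forkhead and SOX genes, 72 in number, encode transcription factors that direct cell fate, and 29.2% to 38.9% of them had a promoter summit per library. Among 50 homeobox genes outside the clusters, which encode relatives of the HOX proteins, 24% to 38% had one. Every library placed HOX genes below both families, and the highest HOX share of 15.8% lay under the lowest share of either. The clustered protocadherins, cell adhesion genes that also lie in tandem arrays, had 5.66% to 13.2%, a range inside that of the HOX genes. Their promoters differ in kind, as only 5 of 51 were CpG-rich. Among CpG-rich promoters alone, 22 of 55 forkhead and SOX promoters (40%) and 14 of 41 other homeobox promoters (34.1%) had a summit at the canonical start site in any library.

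**Figure D2:**
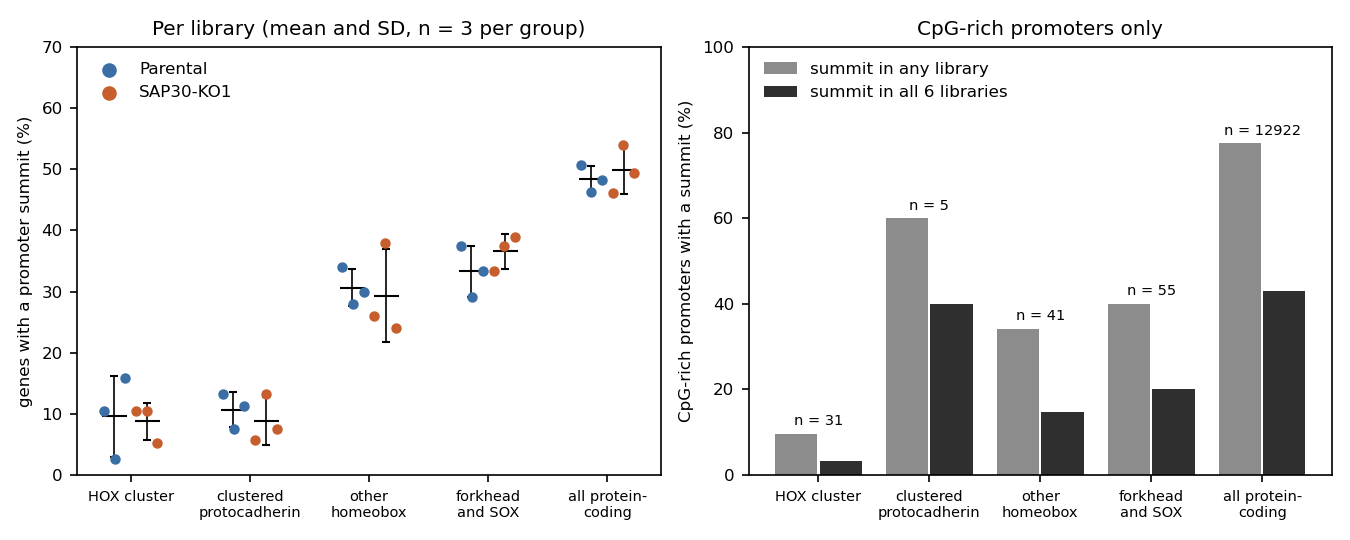
Left, share of genes with a promoter summit (%) in each library for 5 groups of genes, with points for libraries and bars for mean ± SD (n = 3). Right, share of CpG-rich promoters (%) with a summit within 1 kb of the canonical start site in any or in all 6 libraries, with the number of promoters above the bars, where HOX genes stand lowest at 9.68% and 3.23%.

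Along the clusters, summits were then counted between the outermost listed genes. The spans were chr7:27139973-27239710 for HOXA (HOXA2 to HOXA13), chr17:46605888-46806112 for HOXB, chr12:54332615-54449814 for HOXC and chr2:176957449-177055635 for HOXD, and together they cover 515.35 kb. The 4 spans held 10, 5 and 8 summits in parental replicates 1 to 3, against 3, 7 and 6 in those of SAP30-KO1. Group means were 7.67 ± 2.52 and 5.33 ± 2.08 (SD, n = 3), and the ranges overlapped. Density over the spans was 0.582 to 1.94 summits per 100 kb, which brackets the 1.05 to 1.43 of the whole genome. The HOXD cluster carried 19 of the 39 summits.

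HOXD was the densest cluster in 6 of 6 libraries. It held 4, 3 and 4 summits in parental cells against 2, 3 and 3 in SAP30-KO1 cells, which is 3.23 ± 0.767 per 100 kb over all libraries (SD, n = 6). In every library this lay above the density of 0.5 to 1 in the 200 kb on each side of the cluster. The group means of 3.67 ± 0.577 and 2.67 ± 0.577 summits differed by -1, with a count of 3 in both groups. Part of this rests on 1 promoter called with a pair of summits in parental replicate 1, at HOXD1. Counts scaled to the length of each list, in relative units, did not overlap. They were 1.09, 0.984 and 1.19 in parental cells against 0.672, 0.738 and 0.876 in SAP30-KO1 cells. This gap also rests on the HOXD1 pair, as 3 summits in parental replicate 1 scale to 0.818, inside the SAP30-KO1 range. With the same number of top summits from each library, the difference was -0.333 summits. The scaled counts of this and the other clusters were not tested. The share of other regions whose scaled counts would separate was not computed, so a gap in them is no result about a cluster.

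In the remaining clusters fewer summits were called. HOXA held 3, 1 and 1 summits in parental cells against 0, 1 and 1 in SAP30-KO1 cells, or 1.17 ± 0.986 per 100 kb (SD, n = 6) beside 1.46 in its flanks. These counts leave out the HOXA13 promoter summits, which lie just past the end of the span. With every span extended by 1 kb at both ends, a choice made after these values were seen, HOXA held 11 summits in place of 7 (1.80 ± 1.15 per 100 kb, beside 1.29 in its flanks) and the counts of HOXB, HOXC and HOXD were the same. HOXB, the longest at 200.2 kb, held 2, 1 and 1 in parental cells against 0, 2 and 1 in SAP30-KO1 cells, or 0.583 ± 0.376 beside 1.17. HOXC held 1, 0 and 2 in parental cells against 1 in each SAP30-KO1 library, or 0.853 ± 0.540 beside 0.792. Group ranges of these counts overlapped in all 3, with differences of -1, -0.333 and 0 summits for HOXA, HOXB and HOXC. Scaled to list length as for HOXD, those of HOXB and HOXC still overlapped and those of HOXA did not. The HOXA gap was narrow, with 1 summit on each side, at 0.298 in parental replicate 3 and 0.292 in SAP30-KO1 replicate 3. In the extended HOXA span the scaled ranges overlapped, as 1 summit in parental replicate 2 (0.328) lay below 2 in SAP30-KO1 replicate 2 (0.492).

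**Figure D3:**
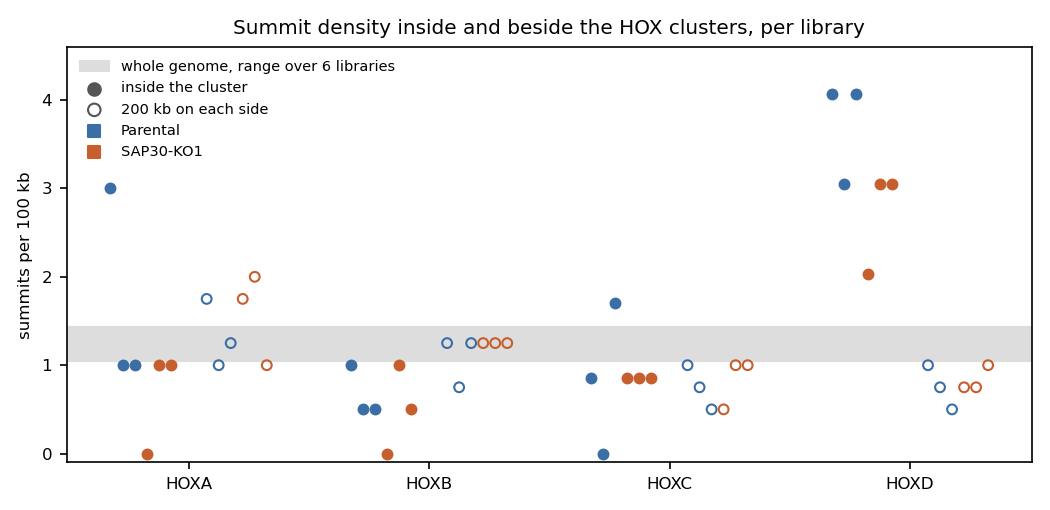
Summits per 100 kb inside each cluster (filled points) and in the 200 kb on each side (open points), per library, with the range of the whole genome as a grey band. The HOXD points, 2.04 to 4.07, lie above their open points in every library, and those of the other clusters reach down to 0.

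Merging summits that lay close together across libraries gave 12 sites in the spans, of which 2 were called in all 6 libraries and 5 in 1 library only. Over the whole genome, 28.9% of 56413 such sites were called in all 6 and 28.5% in 1. Both HOX sites called in all 6 lay in the HOXD cluster, at its opposite ends, and 1 of them was the HOXD1 promoter. Of the 12 sites, 5 lay within 1 kb of a HOX start and the others lay between genes or in introns of HOX genes, 1 of these over an exon of the antisense RNA HOXA-AS2. No site was called in all 3 libraries of one group and none of the other.

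**Figure D4:**
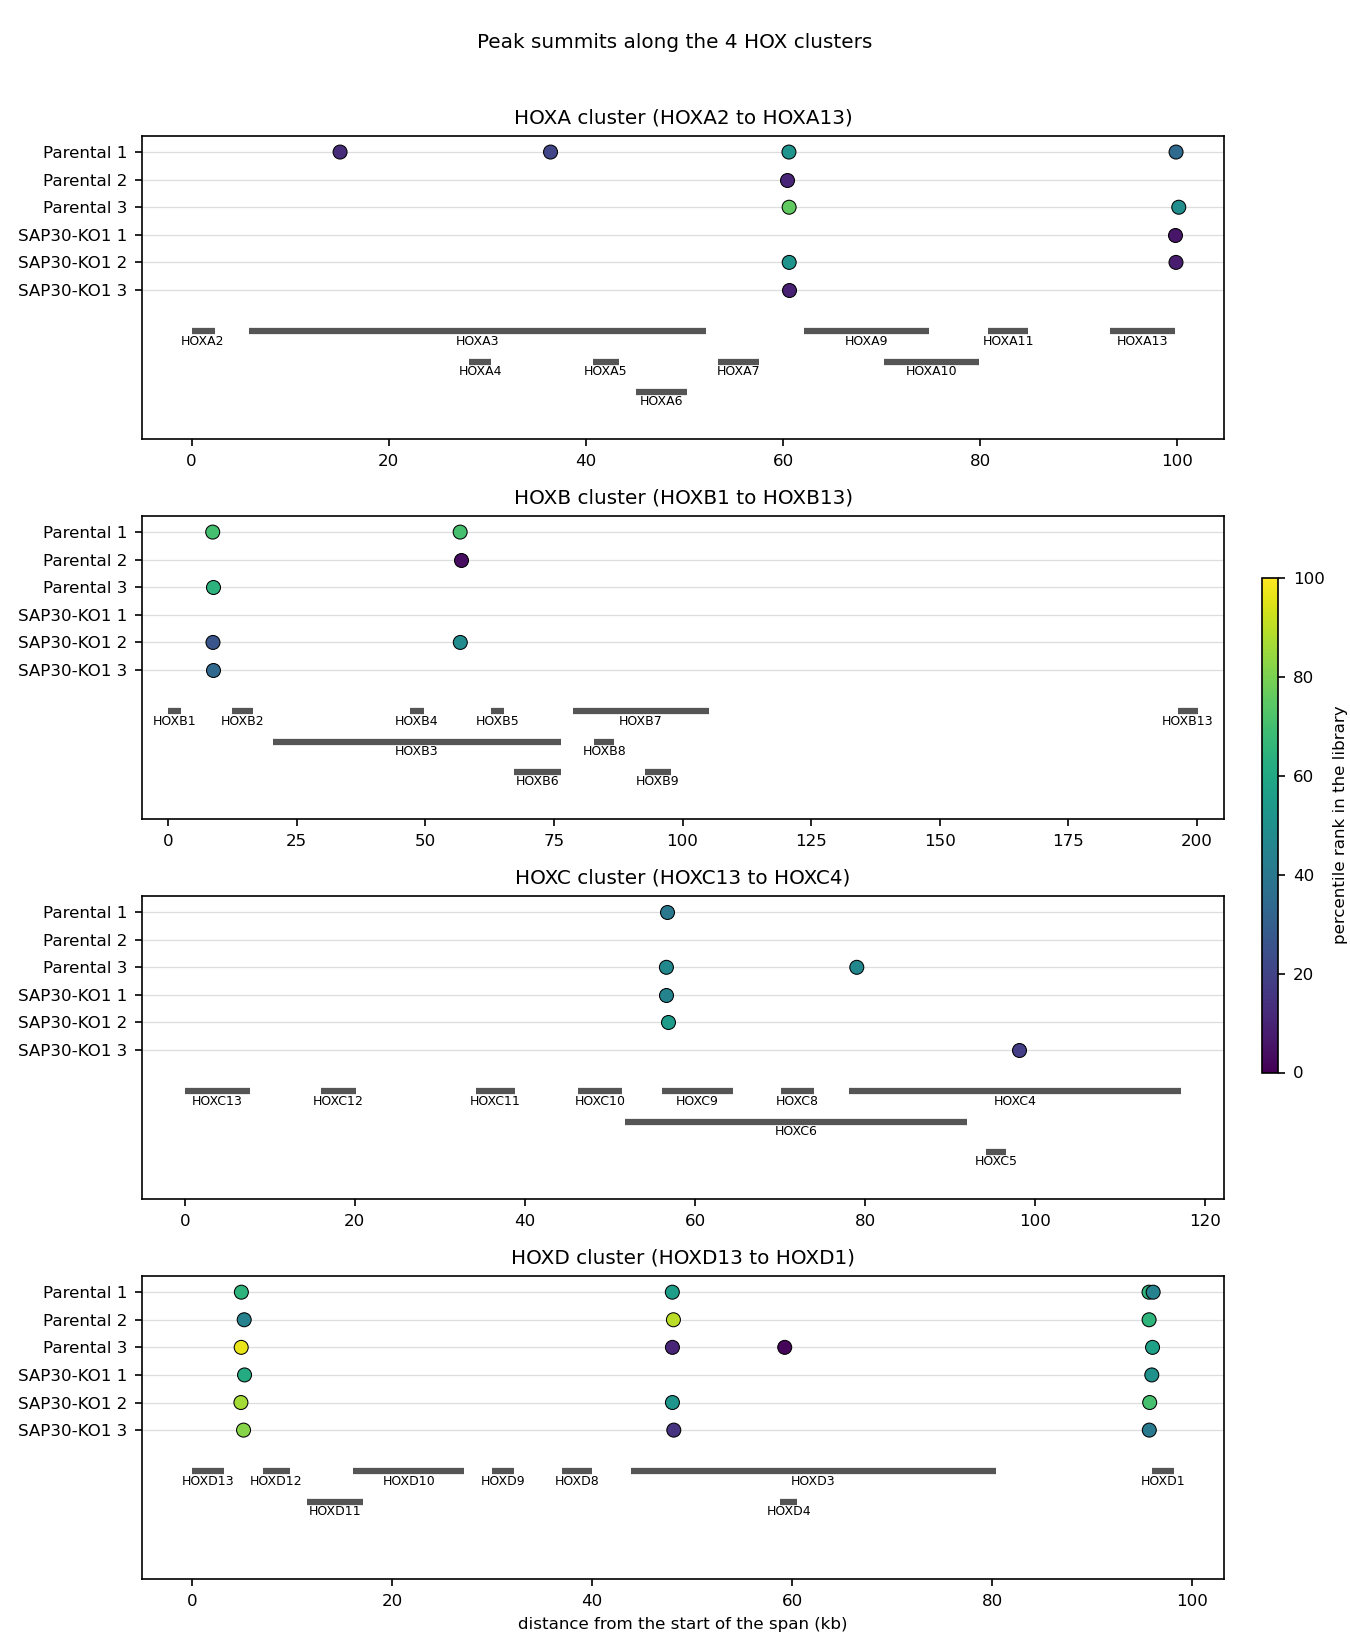
Summits (points, coloured by percentile rank) along each HOX cluster, per library, with distance from the start of the span in kb and the listed genes as bars below. Summits recur at the same places at both ends of HOXD and in HOXD3, while the stretch of HOXB from HOXB5 to HOXB13 and that of HOXC from HOXC13 to HOXC10 hold none.

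The strongest site of the 4 clusters lay between HOXD13 and HOXD12, posterior genes of limb and urogenital development, at chr2:176962065-176962928, outside any annotated gene. Ranks were 64.7, 43.9 and 96.6 in parental cells against 61.0, 86.6 and 82.0 in SAP30-KO1 cells. The ranges overlapped, with the lowest and the highest rank both parental. Means were 68.4 ± 26.5 and 76.6 ± 13.6 (SD, n = 3), a difference of 8.15 (exact permutation test, two-sided, p = 0.7). Neither neighbouring gene had a promoter summit within 1 kb in any library.

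A site in an intron of HOXD3, at chr2:177005212-177005858 between HOXD8 and HOXD4, was called in 5 libraries. HOXD3 is an anterior gene whose annotated span also contains HOXD4, and the site lay 3787 bp from its nearest start. Ranks were 55.2, 89.7 and 10.5 in parental cells against 0, 52.6 and 15.2 in SAP30-KO1 cells. Spread within each group was wide, the ranges overlapped, and the difference of the means, 51.8 ± 39.7 and 22.6 ± 27.1 (SD, n = 3), was -29.2 (exact permutation test, two-sided, p = 0.4).

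In HOXA, a site between HOXA7 and HOXA9 at chr7:27200179-27200852 was also called in 5 libraries. It was the one site of the 12 with a CTCF core motif, which lay on the minus strand 174 bp from the middle summit. CTCF is the factor that marks boundaries between active and silent parts of HOX clusters. Ranks were 51.6, 10.3 and 75.7 in parental cells against 0, 51.6 and 9.16 in SAP30-KO1 cells. Parental replicate 2 stood with the SAP30-KO1 libraries and SAP30-KO1 replicate 2 with the parental ones, so that the ranges overlapped. The means of 45.9 ± 33.1 and 20.3 ± 27.5 (SD, n = 3) differed by -25.6 (exact permutation test, two-sided, p = 0.2).

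In HOXB, a site between HOXB1 and HOXB2 was called in 4 libraries. Both genes pattern the hindbrain. Ranks were 70.1, 0 and 64.3 in parental cells against 0, 26.2 and 33.5 in SAP30-KO1 cells. The parental ranks were the highest where called, but a library of each group was at 0. Means were 44.8 ± 38.9 and 19.9 ± 17.6 (SD, n = 3), a difference of -24.9 (exact permutation test, two-sided, p = 0.4). The weaker HOXB site, in an intron of HOXB3, was called in 3 libraries, with ranks of 70.6 and 3.19 in parental replicates 1 and 2 and 48.0 in SAP30-KO1 replicate 2.

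Group ranges did not overlap at 0 of the 12 sites, when they did not at 10.1% of all sites (5711 of 56413, with 3306 higher and 2405 lower in SAP30-KO1 cells). Only the sites at HOXD13 to HOXD12, HOXD3, HOXD1 and HOXA7 to HOXA9 could separate. The others had a rank of 0 in a library of each group. Leaving out parental replicate 2 made the ranges separate at 2 sites (HOXA7 to HOXA9 and HOXB1 to HOXB2, both lower), leaving out parental replicate 3 at 1 (HOXD3, lower), and leaving out SAP30-KO1 replicate 2 at 2 (HOXD1 and HOXA7 to HOXA9, both lower). The share over all sites was then 17.2%, 17.0% and 17.2%.

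Sequence motifs at the 12 sites were searched on both strands in windows of 501 bp. An AP-1 motif, TGANTCA, was held by 3 sites, including that at HOXD13 to HOXD12, 236 bp from the middle summit. Of all sites in the genome, 44.6% held one. The CTCF core was held by 1 site, beside 2.95% of all sites. The motif TGATNNAT, bound by HOX proteins together with PBX, was held by 1 site, at HOXC9, beside 19.6%. Within 1 kb of the canonical start site, 0, 7 and 18 of the 38 HOX genes held CTCF, AP-1 and HOX-PBX motifs, and 1.42%, 32.4% and 38.6% of all genes did.

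Position along the cluster, the property that orders HOX genes in development, was compared with promoter rank. Of the 7 anterior genes (paralogs 1 to 3), 1 had a promoter summit in any library, with a mean rank of 8.30 over all 7 that came from HOXD1 alone. Of the 15 central genes (paralogs 4 to 8) 3 had one and the mean rank was 2.81, and of the 16 posterior genes (paralogs 9 to 13) 2 had one and the mean was 2.95. Across the 38 genes, which share libraries and in part summits, Spearman's rho between paralog number and mean rank was -0.132. Of these genes 32 were tied at a rank of 0.

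Most noncoding genes of the spans that had a promoter summit shared it with a HOX gene, so the pairs are not independent. HOXA-AS2 did not, as its summit in parental replicate 1 (rank 12.4) had no HOX start within 1 kb. Of 27 long noncoding RNA genes with a start site in a span, 5 had a promoter summit in any library and 1, HAGLR, in all 6. The share over all noncoding genes of the genome was not computed. HOTTIP and HOXC-AS2 had one in 4 libraries each, through the summits of HOXA13 and HOXC9. HOTAIR, the antisense RNA between HOXC12 and HOXC11, had none in any library, nor did any of 7 miRNA genes, MIR10B and the miR-196 genes among them.

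Every cluster had at least 1 protein-coding neighbour within 200 kb with a promoter summit in all 6 libraries. That held for 1 of 2 neighbours of HOXA, 1 of 5 of HOXB, 1 of 2 of HOXC and 2 of 3 of HOXD. Over all genes the share was 34.6%, and the neighbours are too few to set against it. Beside HOXB, SKAP1 had no summit, and TTLL6, CALCOCO2 and UBE2Z had one in 1, 3 and 4 libraries. SMUG1 beside HOXC had one in 1 library. SKAP2 beside HOXA, ATP5MC1 beside HOXB, CBX5 beside HOXC, and MTX2 and LNPK beside HOXD had a promoter summit in all 6 libraries. LNPK ranked from 82.1 to 97.6, above every HOX promoter summit. EVX1 and EVX2, homeobox genes at the posterior ends of HOXA and HOXD, had none in any library.

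Genes that work with or upon HOX genes had promoter summits in 36 of 45 cases in any library (80%, against 62.3% of all genes) and in 20 in all 6 (44.4%, against 34.6%). Of 9 HOX cofactors, the PBX, MEIS and PKNOX proteins that bind DNA beside HOX proteins, 6 had a promoter summit in any library and 4 in all 6. All 8 Trithorax-side activators had one in some library and 3 in all 6, and of 14 Polycomb group genes 12 and 6 did. The 6 boundary factors, CTCF and cohesin subunits, were open in all 6 libraries. Of 8 genes that signal to HOX clusters, retinoic acid receptors, CYP26 enzymes and CDX factors, 4 had a summit in any library and 1 in all 6. Of the 95 genes of these lists and the other homeobox genes, 29 had a promoter summit in all 6 libraries and so entered the limma fit. None of them passed it, and over all genes 0 of 6966 did.

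Ranges that did not overlap were found in 6 of the 55 listed genes with a summit (10.9%), other homeobox genes included, which is near the 10.6% over all genes and so no result about these lists. Each had the smallest p the exact permutation test allows, 0.1. PBX3, a HOX cofactor, had ranks of 26.2, 0 and 76.6 in parental cells against 85.6, 89.2 and 89.1 in SAP30-KO1 cells, a difference of 53.7. MEN1, which encodes menin, the partner of KMT2A at HOX genes, had 89.6, 88.6 and 79.4 in parental cells against 44.9, 37.0 and 2.97 in SAP30-KO1 cells. All 3 SAP30-KO1 ranks of MEN1 lay far below the parental ones, a difference of -57.5 (limma standard error 14.6, adjusted p = 0.703). Loci on its chromosome arm, 11q, that were open in all 6 libraries had a median difference of -14.7 rank points (454 loci), and the part of that shift in the MEN1 difference was not tested. The mean rank of SMC1A, a cohesin subunit, differed by 29.6, that of PAX9 by 20.6, that of PITX1 by -29.7 and that of IRX5 by -28.5. PBX3 and IRX5 lacked a summit in 1 library each and did not enter the limma fit, and the other 4 did not pass it.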

How the data were processed

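The HOX genes, gene lists and tests were chosen with earlier results of these data known. According to the study's methods and the submitters' processing notes, the authors trimmed single-end reads with Trim Galore 0.4.5, aligned them to hg19 with Bowtie2 2.3.3.1, took out duplicates by Picard and ran MACS2 2.1.0 for peaks at a q value of 0.05. Handling of the transposase offset, blacklisted regions and mitochondrial reads is not given in the sources used here. An unshifted read moves a summit by a few bases. The deposited score is −log10 of the q value, read from its lowest values of 1.31 to 1.33, and replicates were taken to be called separately. Nothing states that the 3 libraries of a group came from separate cultures, so p-values measure the spread between these libraries only. No pair of libraries shared more than 0.598% of exact summit positions, so none was taken as a copy.

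Annotation was GENCODE release 44 on GRCh37, whose chromosome lengths held all summits. Summits were extended by 250 bp on each side and merged into sites. Mean ranks of the groups were compared with exact permutation tests (SciPy 1.17.1, two-sided, 20 assignments) and with limma 3.58.1 (R 4.3.3, trend on the mean, Benjamini-Hochberg adjustment over all genes tested). The limma fit was checked on simulated ranks with shifts far larger than the HOXD1 difference, so the check does not cover smaller shifts. Lists were described by counts. Values are given in every library for HOX genes whose ranges do not overlap or that pass the limma fit, for the top gene by mean rank in each cluster, for the 3 largest differences and for the 5 sites with the highest mean rank. The HOXB3 site was added because it recurred in 3 libraries. The sequence of the HOXB sites is not reported here. Alternatives were stricter q values, equal list lengths, other promoter windows and start sites, ranks within a chromosome arm, other limma settings, a replicate block, narrower sites, longer spans and each library left out in turn.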

Additional observations from a re-analysis of the deposited data

How the results depend on the processing

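With all libraries kept, the counts of HOX genes with a promoter summit, the mean promoter rank over the 38 genes and the promoter ranks of HOXD1, HOXA13, HOXC4, HOXC6 and HOXC9 differed between groups by an amount within 1 SD of the values reported in each alternative. The difference in summits of the HOXD span, -1, was -0.333 with the same number of top summits from each library, a setting that drops the weakest summits of the longer lists. Spans extended by 1 kb, a setting added after the data were seen, left all 4 group differences in summits as they were. Leaving out 1 library at a time gave 0 to 1 HOX promoters and 0 to 2 cluster sites with ranges apart, beside 0 with all libraries. Smaller groups separate more often, and the share over all genes was then 18.5% to 20.9%. Differences of single genes then moved by over 1.5 times or changed sign, none of them called: HOXD1 ran from -16.9 (without SAP30-KO1 replicate 2) to -1.89 (without SAP30-KO1 replicate 3), HOXA13 from -36.8 to -12.5 (without parental replicates 2 and 3), HOXC9 and HOXC6 from -9.99 (without parental replicate 2) to 21.1 (without SAP30-KO1 replicate 3), and HOXC4 from -17.4 (without parental replicate 1 or 2) to 6.07 (without parental replicate 3). The difference in mean promoter rank ran from -2.16 to 0.241 and that in HOX genes with a summit from -1.67 to 0.833, in both cases without parental replicates 2 and 3. At canonical start sites HOXC9, HOXC6 and HOXC4 had no summit. The limma fit called 19 genes, 6 of them higher in SAP30-KO1 cells and 0 of them HOX genes, on quantile-normalized log2 scores, and 0 genes in the other settings, which tested 1 HOX gene each, or 2 with a promoter window of 2.5 kb and 6 when a summit in any library was enough. Same-numbered libraries did not deviate together (correlations of -0.018, -0.0286 and 0.0115), so the numbers were not taken as pairs. With a replicate block, 0 HOX promoters passed the limma fit, and 0 HOX promoters and 0 cluster sites moved the same way in all 3 same-numbered pairs. The share of all promoters or sites that moved so was not computed, so these counts are no result about the HOX genes. A gene with no summit in either library of a pair could not count, and 32 HOX genes had no summit in any library. With the block, the limma fit called 0 genes, as without it. With no read counts, a summit missing from a library cannot be told from one lost to depth, and all values of a cluster rest on few summits.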
